A study of Oryza sativa with 35 samples.

Results

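The plasma membrane intrinsic proteins (PIPs) are the aquaporins that carry water across the plasma membrane. All 10 PIP loci of rice that are listed as PIP1-1 to PIP1-3 and PIP2-1 to PIP2-7 were followed here, out of 57778 loci in the expression table. They were taken by their locus identifiers and not by their values, and all 10 were expressed above the limit for testing, which 22961 loci passed. RNA-Seq had been run on whole plants of 2 rice genotypes. 9311 is an indica cultivar labelled chilling sensitive. DC90, labelled chilling tolerant and written W9 in the sample titles, is a chromosome segment line that carries the wild rice (Oryza rufipogon) locus CTS-12 in the 9311 background, so its differences from 9311 belong to 1 introgression line. Seedlings aged 30 days were held at 10 °C by day and 8 °C by night for 3 days and were then returned to normal growth conditions. The 12 groups were both genotypes at 0 h (before chilling), at 12, 24 and 72 h of chilling, and at 84 and 96 h, which were 12 and 24 h of recovery. Each group held 3 libraries except 9311 at 84 h, which held replicates 1 and 3, so that 35 libraries entered every fit. The 12 and 84 h plants were taken 12 h out of the daily phase of the others, and this part of a change at those timepoints cannot be told apart from the treatment.

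Water moves through a PIP as a tetramer in which every subunit forms its own pore. PIP2 proteins are efficient water channels, whereas PIP1 proteins conduct little water on their own and reach the plasma membrane when assembled with PIP2 partners. In rice, PIPs of the root carry much of the water that crosses living cells on its way to the xylem, and chilling is known to lower the hydraulic conductivity of roots. Transcript level is only one of the controls on these channels, which are also gated by phosphorylation and moved in and out of the membrane.

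Between 28004101 and 68927044 reads per library were counted on genes (median 41334252). 4 libraries stood apart from their groups, and this was seen in the data and not in the labels. In DC90 replicate 3 at 0 h the summed level of 11 root-preferred marker genes was 687 FPKM (fragments scaled by transcript length and library depth), against 42.06 and 43.32 in its mates. Untreated 9311 libraries lay between these values, at 128.9 to 189.7. The mean correlation of this library with its group was 0.9069, against 0.9235 and 0.9079 for replicates 1 and 2. Which untreated DC90 libraries are typical was not tested. 9311 replicate 2 at 72 h had a mean correlation of 0.8749 with its group, against 0.9224 and 0.9087 for the others, and 9311 replicate 2 at 12 h had 0.8786, against 0.9288 and 0.9217. In DC90 replicate 1 at 24 h, LOC_Os12g07020 held 24.46% of the reads of the pair LOC_Os12g07010 and LOC_Os12g07020. The other DC90 libraries held at least 99.96% and 9311 libraries at most 18.64%, so at this pair the library went partly against its genotype label. At LOC_Os12g35590 it held 1456 reads, with at least 1143 in the other DC90 libraries and at most 3 in 9311. At LOC_Os12g17120 it held 0, like all DC90 libraries, with at least 155 in 9311, so at these loci it went with its label. The counts of PIP loci called at an adjusted p of at most 0.05 were also obtained without these libraries. Whole plants were sampled, so fewer cells of a type and less RNA per cell cannot be told apart.

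The 10 loci spanned almost 2 orders of magnitude in mean FPKM, a measure per transcript length that allows genes to be set side by side. PIP1-2 (LOC_Os04g47220) was the most abundant, with a mean of 426.6 FPKM over all libraries and rank 96 among all loci. PIP2-1 (LOC_Os07g26690, 334.8), PIP1-1 (LOC_Os02g44630, 331.5) and PIP2-7 (LOC_Os09g36930, 324.5) followed. PIP2-6 (LOC_Os04g16450, 215.7), PIP2-2 (LOC_Os02g41860, 104) and PIP1-3 (LOC_Os02g57720, 66.95) were intermediate, and PIP2-3 (LOC_Os04g44060, 14.56), PIP2-4 (LOC_Os07g26630, 11.24) and PIP2-5 (LOC_Os07g26660, 4.888) were low. PIP2-4, PIP2-5 and the abundant PIP2-1 lie near each other on chromosome 7 in locus number, with a further PIP-like locus between PIP2-4 and PIP2-5. How reads that fit several loci were assigned is not given in the sources used here, so the split of reads among these copies is uncertain.

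In untreated 9311 the order of mean FPKM was PIP1-2 (702.5), PIP2-1 (578.8), PIP1-1 (443.2), PIP2-6 (224.4), PIP2-2 (161.7), PIP1-3 (77.05), PIP2-7 (65.55), PIP2-3 (29.9), PIP2-4 (14.13) and PIP2-5 (6.369). PIP1-2 and PIP2-1 overlapped between libraries, as did PIP2-6 with PIP2-2 and PIP1-3 with PIP2-7, and all other neighbours in the order were apart. Untreated DC90 gave the same order, although there every neighbouring pair overlapped. During chilling PIP2-7 moved from seventh place to first in both genotypes at 12 and 24 h. Its 9311 libraries at 24 h lay above those of PIP1-1, the next gene in the order, while in DC90 at 24 h the ranges of these genes overlapped. By 96 h PIP1-2 was again the most abundant in both genotypes.

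**Figure D1:**
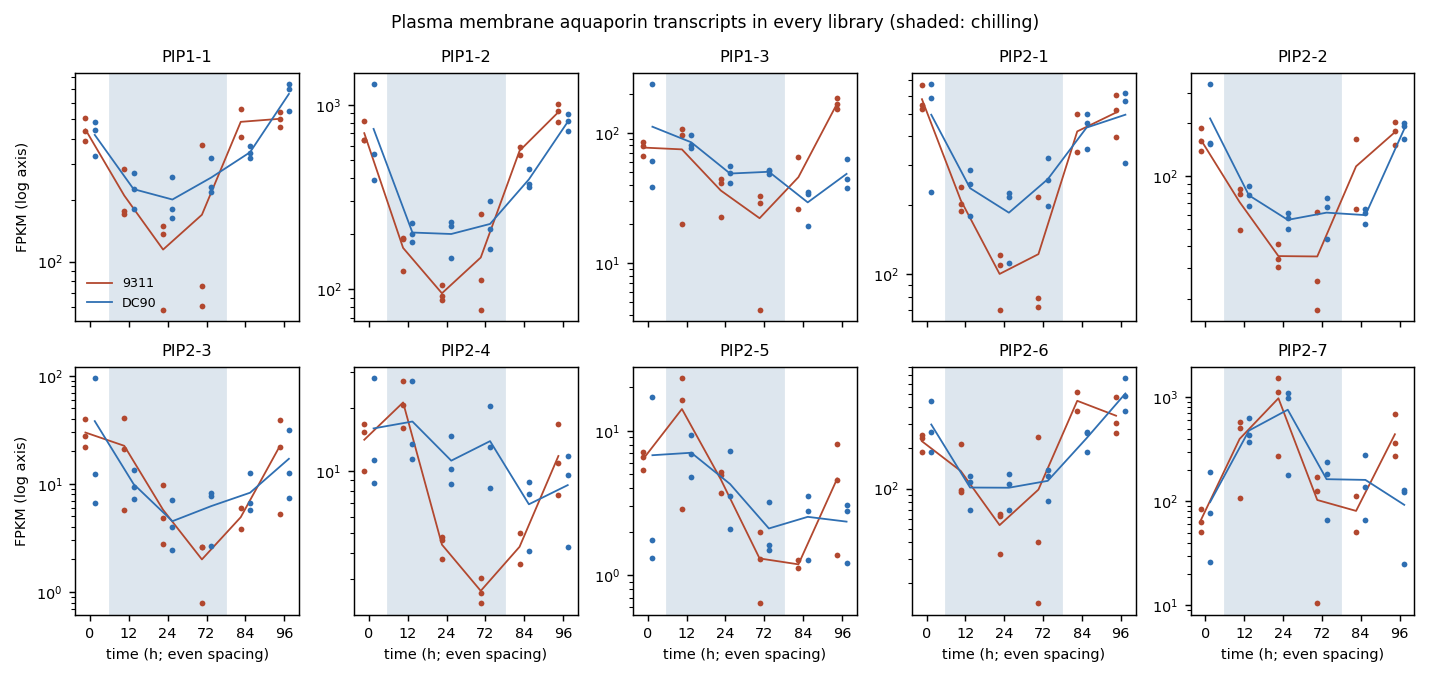
FPKM (log axis) of the 10 PIP loci in each library against time, with 9311 in red and DC90 in blue, points for libraries, lines for group means and the chilling timepoints shaded. PIP1-1, PIP1-2, PIP2-1, PIP2-2 and PIP2-6 dip during chilling and rise again by 96 h, PIP2-7 peaks at 24 h, and DC90 replicate 3 at 0 h is the highest DC90 point at 0 h in every panel.

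PIP1-2 fell at all 3 chilling timepoints in both genotypes. After 24 h of recovery its mean FPKM was 130.1% of 0 h in 9311 and 109.2% in DC90, and neither difference passed. In 9311 its FPKM was 643.9, 814.9 and 648.6 at 0 h, 186.6, 125.4 and 190.8 at 12 h, 105.9, 91.85 and 87.6 at 24 h, and 77.43, 256.1 and 112.4 at 72 h. All 9 chilled 9311 libraries lay below all untreated ones. The log2 fold changes were -1.83 (SE 0.37, adjusted p = 0.000702), -2.55 (SE 0.38, adjusted p = 9.13e-06) and -2.22 (SE 0.38, adjusted p = 3.22e-05) by edgeR's quasi-likelihood test, or 5.85-fold lower at 24 h. In DC90 the FPKM was 391.5, 541 and 1290 at 0 h, 229.7, 200.1 and 179.5 at 12 h, 148, 231 and 219.2 at 24 h, and 212.5, 164.7 and 301.1 at 72 h. The chilled DC90 libraries were likewise all below the untreated range. Here the log2 fold changes were -1.73 (SE 0.37), -1.75 (SE 0.37) and -1.97 (SE 0.38), with adjusted p-values of 0.00102, 0.000561 and 0.000164.

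PIP1-1, the closest PIP1 to it in level, took a similar course in 9311. Its FPKM there was 434.1, 507.4 and 388 at 0 h, 149.4, 58.04 and 135.8 at 24 h, and 75.98, 372.2 and 60.21 at 72 h. The 24 and 72 h libraries all lay below the untreated ones, replicate 2 at 72 h only narrowly, and PIP1-1 fell by log2 1.70 (SE 0.39, adjusted p = 0.0012) and by 1.43 (SE 0.39, adjusted p = 0.00389). In DC90 its level was 329.3, 441.7 and 480.6 FPKM at 0 h and between 162.6 and 323 in the 9 chilled libraries, also without overlap. The DC90 differences did not pass the threshold of an adjusted p of at most 0.05, with log2 values of -0.75, -0.92 and -0.94 and adjusted p-values of 0.148, 0.0592 and 0.0535 at 12, 24 and 72 h. PIP1-3, also known as the water channel RWC3, was less regular. It fell in 9311 at 72 h (66.78, 85.31 and 79.08 FPKM at 0 h, then 29.06, 4.392 and 32.9, with a log2 fold change of -1.69, SE 0.64 and adjusted p = 0.0321). That call was lost on leaving out replicate 2 at 72 h (-1.19, adjusted p = 0.11), replicate 2 at 0 h (adjusted p = 0.062) or replicate 3 at 0 h (adjusted p = 0.069).

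Among the PIP2 loci, PIP2-1 and PIP2-2 showed the steadiest falls. PIP2-1 is known in rice for water uptake by roots. Its FPKM in 9311 was 546.9, 664 and 525.5 at 0 h, 202.4, 240.4 and 187.8 at 12 h, 109.4, 70.13 and 121.7 at 24 h, and 72.34, 216.2 and 78.82 at 72 h. All chilled 9311 libraries were below the untreated range, and PIP2-1 fell with log2 fold changes of -1.25 (SE 0.33, adjusted p = 0.0064), -2.13 (SE 0.34, adjusted p = 1.72e-05) and -2.18 (SE 0.34, adjusted p = 1e-05). In DC90 the untreated libraries already ranged widely (228.8, 586.6 and 670.7 FPKM), and the chilled ones held 247.9, 284.6 and 179.1 at 12 h, 112.6, 217 and 227.1 at 24 h, and 258.1, 198.7 and 321.7 at 72 h. In FPKM the groups overlapped at 12 and 72 h because of untreated replicate 1. The ratio of PIP2-1 reads to FPKM varied between libraries, from 1.001 to 1.351 on a relative scale. Untreated replicate 1 held 25575 reads at 228.8 FPKM, and replicate 2 held 46104 at 586.6. Per counted read, untreated replicate 1 lay above every 12 h library but below replicate 3 at 72 h. In the test on counts PIP2-1 fell by log2 1.01 (SE 0.33, adjusted p = 0.0219), 1.35 (SE 0.33, adjusted p = 0.00194) and 1.27 (SE 0.33, adjusted p = 0.00314). The call at 12 h was lost without DC90 replicate 3 at 0 h (adjusted p = 0.14) or replicate 3 at 12 h (adjusted p = 0.097).

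PIP2-2 held 138.7, 188.3 and 158.2 FPKM in untreated 9311, 41.26, 33.68 and 30.23 at 24 h, and 17.33, 62.14 and 25.18 at 72 h. It held 153.1, 154.2 and 333.6 in untreated DC90, 57.84, 61.6 and 49.79 at 24 h, and 67.22, 43.95 and 74.89 at 72 h. In both genotypes these chilled libraries were all below the untreated ones. PIP2-2 fell at 24 and 72 h in 9311 by log2 1.88 (SE 0.39, adjusted p = 0.000362) and 2.18 (SE 0.39, adjusted p = 5.93e-05), and in DC90 by 1.78 (SE 0.39, adjusted p = 0.000645) and 2.04 (SE 0.39, adjusted p = 0.000169). At 12 h it fell in DC90 (-1.32, SE 0.38, adjusted p = 0.0106), a call lost without DC90 replicate 3 at 0 h (adjusted p = 0.11) or replicate 2 at 12 h (adjusted p = 0.053), while in 9311 the difference of -0.97 had an adjusted p of 0.0596.

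PIP2-6 followed PIP1-1 closely over the 35 libraries (Pearson r = 0.955). In 9311 it held 235.4, 251.5 and 186.3 FPKM at 0 h, 65.05, 33 and 62.79 at 24 h, and 40.17, 240.6 and 14.12 at 72 h. The 24 h libraries were all below the untreated range, while at 72 h replicate 2 stood inside it and the other replicates far below. PIP2-6 fell at 24 h (-1.77, SE 0.55, adjusted p = 0.0111, lost without replicate 2 at 24 h, adjusted p = 0.055). At 72 h the difference of -1.22 (SE 0.54) did not pass (adjusted p = 0.062), and it did without replicate 2 at 72 h (-2.91, SE 0.45, adjusted p = 1.1e-05). In DC90 its FPKM was 186.9, 261.6 and 447.7 at 0 h and between 69.05 and 138 in all 9 chilled libraries, without overlap. It fell at 12, 24 and 72 h by log2 1.43, 1.41 and 1.65 (adjusted p = 0.0474, 0.039 and 0.0169), and each of these calls was lost when DC90 replicate 3 at 0 h was left out (adjusted p = 0.22, 0.19 and 0.099). The 12 h call was also lost without DC90 replicate 2 at 0 h (adjusted p = 0.054) or any 12 h replicate (0.081, 0.085 and 0.16 without replicates 1, 2 and 3), the 24 h call without replicate 1 or 3 at 24 h (0.14 and 0.081), and the 72 h call without replicate 2 at 72 h (0.076).

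Among the chilling timepoints, the low-abundance loci PIP2-3, PIP2-4 and PIP2-5 were lowest at 72 h in 9311. At 24 h their mean FPKM was already at 19.28%, 31.2% and 72.48% of 0 h. PIP2-3 and PIP2-5 are known in rice as PIPs transcribed mainly in roots. At 72 h the 9311 libraries held 2.606, 0.7871 and 2.617 FPKM of PIP2-3, against 27.66, 21.99 and 40.05 at 0 h. All 3 chilled libraries were below the untreated ones, 14.1-fold in the fit (log2 -3.82, SE 0.92, adjusted p = 0.00139). At 24 h PIP2-3 held 9.741, 2.757 and 4.796 FPKM in 9311, also all below the untreated libraries, although that difference did not pass. PIP2-4 held 2.298, 3.043 and 2.572 FPKM at 72 h and 4.644, 3.771 and 4.809 at 24 h, against 10.01, 15.47 and 16.9 at 0 h. It fell by log2 2.49 at 72 h (SE 0.49, adjusted p = 0.000171) and by 1.42 at 24 h (SE 0.47, adjusted p = 0.0177). The 24 h call was lost without 9311 replicate 3 at 0 h (adjusted p = 0.093) or replicate 3 at 24 h (adjusted p = 0.055). PIP2-5 held 1.986, 0.6408 and 1.3 FPKM at 72 h against 7.19, 6.591 and 5.326 at 0 h and fell by log2 2.18 (SE 0.81, adjusted p = 0.0285). Its call was lost without 9311 replicate 1 at 0 h (adjusted p = 0.056), replicate 2 at 72 h (0.099) or replicate 3 at 72 h (0.069). At 12 h neither PIP2-4 nor PIP2-5 was lower in 9311, and their log2 differences were 0.86 (adjusted p = 0.185) and 1.43 (adjusted p = 0.191).

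PIP2-7 went the other way. This PIP2, shown to carry water in frog oocytes, held 83.66, 50.2 and 62.79 FPKM in untreated 9311, 507, 107.7 and 576.5 at 12 h, 1127, 1528 and 273.4 at 24 h, and 125.6, 10.46 and 172.4 at 72 h. Every 12 and 24 h library was above the untreated range, and the 72 h libraries lay on both sides of it. PIP2-7 rose 7.72-fold at 12 h (log2 2.95, SE 0.97, adjusted p = 0.0257) and 20.6-fold at 24 h (log2 4.37, SE 1.03, adjusted p = 0.00142). It then fell between 24 and 72 h by log2 3.55 (SE 0.99, adjusted p = 0.0139), so that 72 h no longer differed from 0 h beyond the spread (0.82, SE 0.90, adjusted p = 0.477). In DC90 it held 77.55, 26.09 and 190.5 FPKM at 0 h, 435.1, 373.4 and 624.5 at 12 h, 180.7, 1101 and 991.5 at 24 h, and 65.83, 184.5 and 238.4 at 72 h. The DC90 libraries at 12 h were all above the untreated ones, whereas replicate 1 at 24 h was inside their range. PIP2-7 rose 8.45-fold in DC90 at 24 h (log2 3.08, SE 0.97, adjusted p = 0.0133). At 12 h the difference of 2.42 (SE 0.95) had an adjusted p of 0.0559, and the decline from 24 to 72 h was -2.60 (SE 0.95, adjusted p = 0.0771).

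Some of the PIP2-7 calls rested on single libraries. The 9311 call at 12 h was lost on leaving out any untreated 9311 replicate (adjusted p = 0.06, 0.092 and 0.078 without replicates 1, 2 and 3), replicate 1 at 12 h (0.058) or replicate 3 at 12 h (0.093), with log2 fold changes of at least 2.46. It held without replicate 2 at 12 h (3.43, SE 0.99, adjusted p = 0.0113). The 9311 fall from 24 to 72 h had an adjusted p of 0.058 without replicate 2 at 24 h (-2.94), and the DC90 rise at 24 h one of 0.06 without replicate 2 at 0 h (2.62). Without DC90 replicate 3 at 0 h PIP2-7 passed in DC90 at 12 h too (3.32, adjusted p = 0.0361). The 24 h rise in 9311 passed whichever library was left out.

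**Figure D2:**
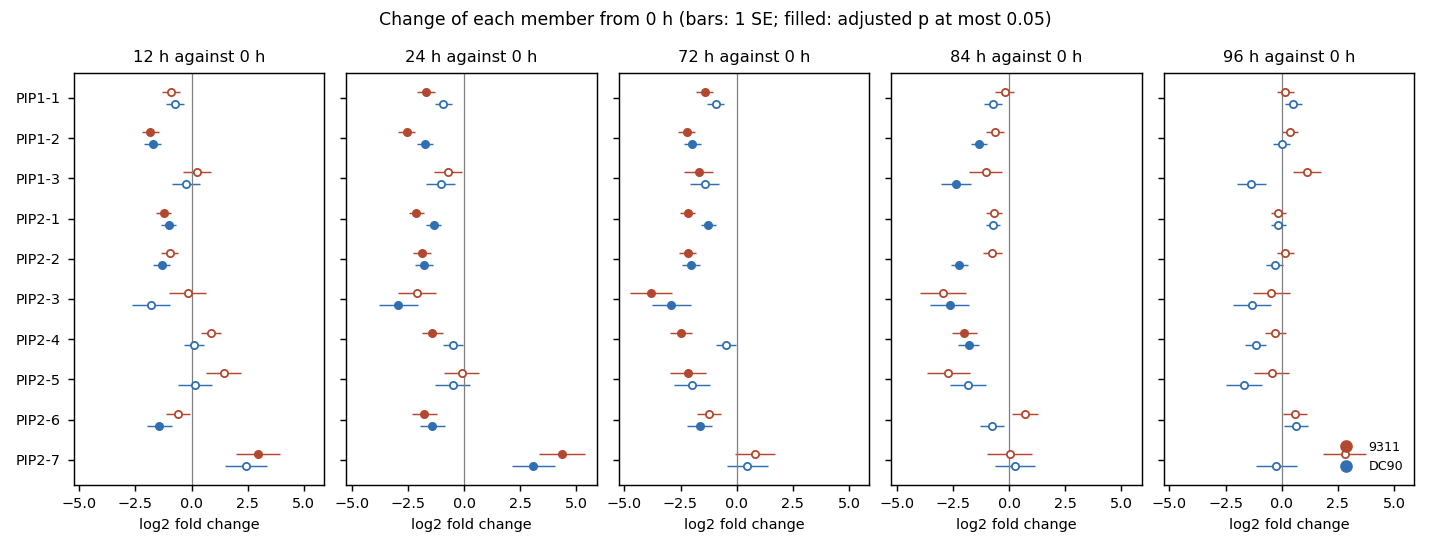
Log2 fold change from 0 h with ±1 SE for each PIP locus (edgeR fit), by timepoint and genotype, with filled points where the adjusted p is at most 0.05. Most loci sit below 0 from 12 to 72 h, PIP2-7 is the highest point at 12 and 24 h, and by 96 h no point is filled.

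Counted together, 1 member rose and 2 fell in 9311 at 12 h, where 13.9% of all loci tested were called higher and 11.3% lower. At 24 h 1 rose and 6 fell, against 20.7% and 20.4% of all loci, and at 72 h 8 fell and none rose, against 24.9% lower and 23.9% higher. The median log2 fold change of the 10 members was -0.38, -1.74 and -2.18 at these timepoints, while the medians over all loci were -0.005, -0.081 and -0.053. Under the study's own thresholds for a differentially expressed gene (a log2 change of 2 or more in size together with an adjusted p no higher than 0.001), 2 members were called at 24 h (PIP1-2 and PIP2-1, against 7.94% of loci) and 4 at 72 h (PIP1-2, PIP2-1, PIP2-2 and PIP2-4, against 11.5%). In DC90 4 members fell at 12 h and none rose, with 14.5% of loci lower and 14.3% higher. At 24 h 1 rose and 5 fell, against 20.1% and 20.5%, and at 72 h 5 fell and none rose, against 21.6% lower and 18.6% higher. The DC90 medians were -0.88, -1.20 and -1.54, beside -0.056, -0.095 and -0.071 over all loci. Under the study's thresholds 1 member, PIP2-2, was called in DC90 at 72 h (7.73% of loci). The DC90 count at 12 h was 2 without replicate 2 or without replicate 3 at 12 h. DC90 and 9311 counts each have their own untreated controls, and the test of the difference between the genotypes is given further on.

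The calls of the low-abundance members against 0 h in DC90 depended on untreated replicate 3, the library with the high root-marker sum. In it the FPKM was 10.1 times the mean of its mates for PIP2-3 (95.47 against 12.29 and 6.605), 11.3 times for PIP2-5 (17.27 against 1.317 and 1.746) and 4.73 times for PIP1-3 (234.7 against 38.63 and 60.63). PIP2-7, PIP2-4, PIP1-2 and PIP2-2 were 3.68, 2.80, 2.77 and 2.17 times higher there, PIP2-6 and PIP2-1 2.0 and 1.65 times, and PIP1-1 was 1.25 times higher. This library was the highest of its group for all 10 members. With it included, PIP2-3 fell in DC90 at 24, 72 and 84 h (log2 -2.93, -2.91 and -2.65, adjusted p = 0.00996, 0.0101 and 0.0449). Without it the values were -0.92, -0.91 and -0.65, and none passed (adjusted p = 0.372, 0.389 and 0.722). The call at 72 h was also lost without DC90 replicate 3 at 72 h (adjusted p = 0.052), and that at 84 h without any 84 h replicate. The number of members that fell in DC90 then became 1, 3, 3 and 1 at 12, 24, 72 and 84 h in place of 4, 5, 5 and 5, and those that rose 2, 1, 0 and 0. The share of all loci called without this library is not given here, so these counts cannot be set against it. The falls of PIP1-2, PIP2-1 and PIP2-2 at 24 and 72 h were kept, with log2 values at 72 h of -1.29, -0.99 and -1.59. PIP2-5 then rose at 12 h (2.32, SE 0.77, adjusted p = 0.0304). The part of the root-marker difference in these values was not tested.

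**Figure D3:**
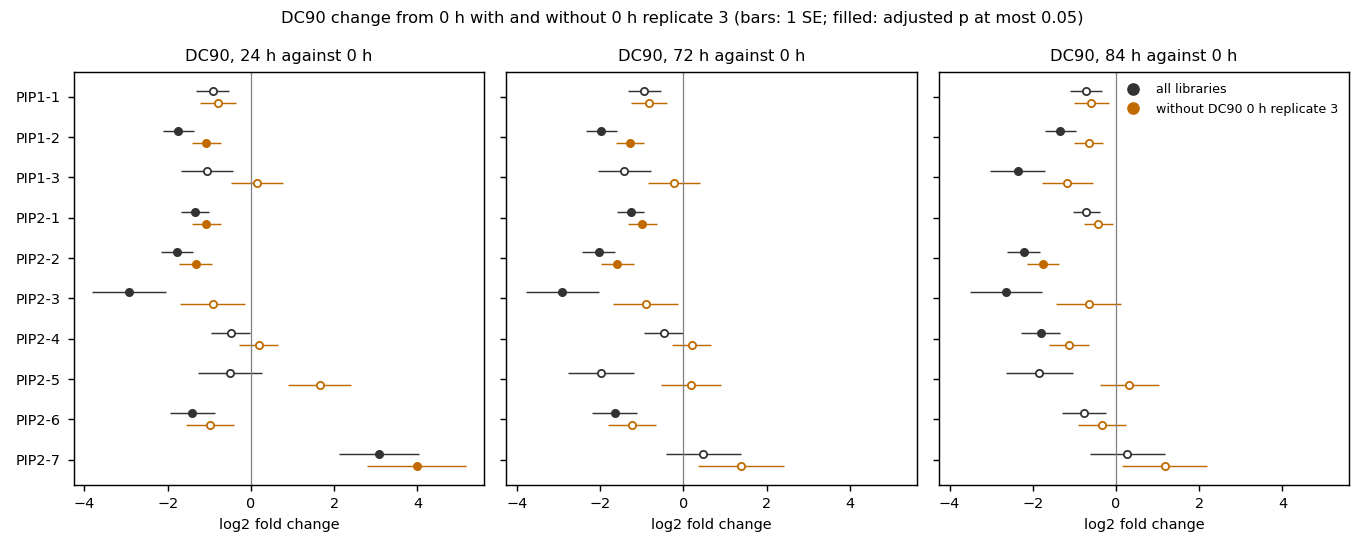
Log2 fold change from 0 h in DC90 at 24, 72 and 84 h for each PIP locus with ±1 SE, from the fit with all libraries (dark) and from the fit without DC90 replicate 3 at 0 h (orange). PIP2-3 and PIP2-5 shift most, PIP2-3 from -2.91 to -0.91 at 72 h, while PIP1-2, PIP2-1 and PIP2-2 stay below 0.

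Summed over loci, the PIP1 transcripts lost most of their level in 9311, and in DC90 with all libraries included. The summed PIP1 level in 9311 was 1116 to 1408 FPKM at 0 h, 429.8 to 470.1 at 12 h, 194.2 to 296.7 at 24 h and 182.5 to 632.8 at 72 h. These ranges do not overlap with 0 h, and at 24 h the mean was 4.98-fold lower (exact permutation test, two-sided, p = 0.1, the smallest that 3 against 3 libraries allow). In DC90 the PIP1 sum went from 759.4 to 2006 FPKM at 0 h to 378.9 to 520.1 at 24 h, with a mean 2.83-fold lower and no overlap (exact p = 0.1). The size of this DC90 fall rests partly on untreated replicate 3, at 2006 FPKM against 759.4 and 1043 in its mates. The PIP2 sum moved differently because it contains PIP2-7. At 24 h it spanned 501.4 to 1677 FPKM in 9311 and 436.4 to 1537 in DC90, overlapping the untreated ranges of 995.1 to 1198 and 671.2 to 1783.

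PIP2-7 supplied 1.926 to 3.813% of all PIP transcript level in untreated 9311 and 36.57 to 81.69% at 24 h of chilling. In DC90 its share was 1.249 to 5.421% and then 22.17 to 55.46%. In neither genotype did the shares at 24 h overlap with those at 0 h. The share of the PIP1 loci dropped from 52.17 to 54.02% to between 10.38 and 32.92% at 24 h in 9311, and from 49.95 to 53.08% to between 22.6 and 46.48% in DC90. The other 9 loci together were at 2048 to 2555 FPKM in untreated 9311 and 342.5 to 531.9 at 24 h, and at 1353 to 3598 and 634.6 to 919.4 in DC90. At 24 h every DC90 library therefore held more of these 9 transcripts than any 9311 library, 1.81-fold in the mean (exact p = 0.1, the smallest allowed), whereas at 0 h the ranges overlapped (1.04-fold). The ratio of 1.04 depends on untreated DC90 replicate 3, at 3598 FPKM against 1353 and 2063 in its mates. It does not show that the genotypes began level.

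**Figure D4:**
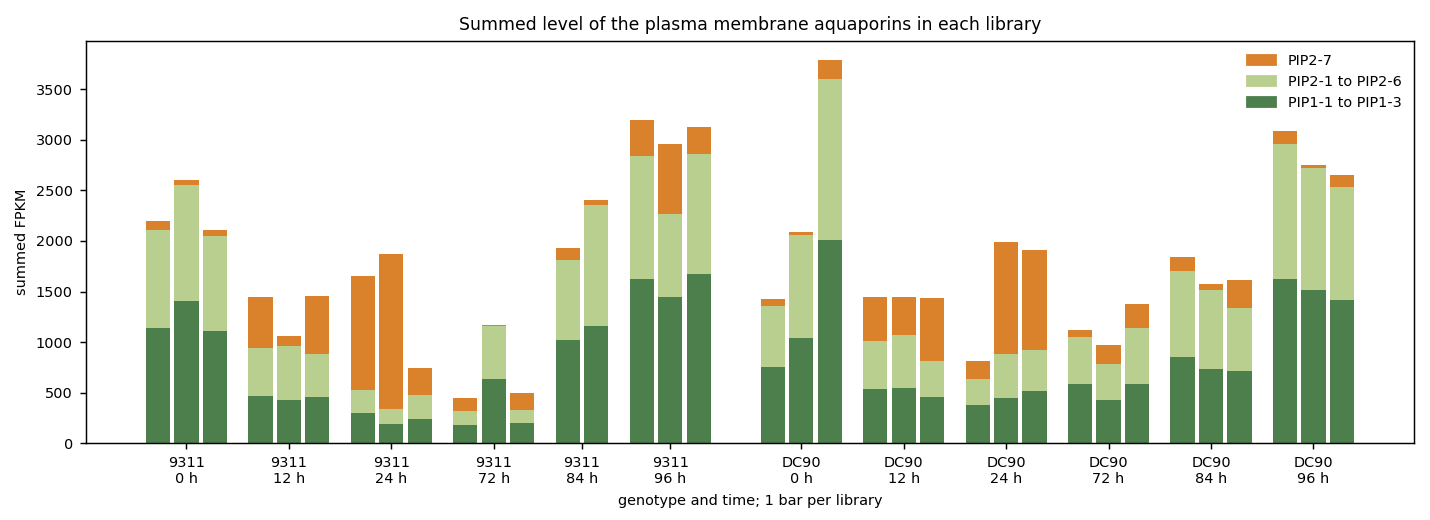
Stacked bars of FPKM per library for the 3 PIP1 loci, for PIP2-1 to PIP2-6 and for PIP2-7, in time order for 9311 and DC90. The PIP1 and other PIP2 parts are smaller from 12 to 72 h and rise again at 84 and 96 h. In DC90 the mean PIP1 sum at 84 h was still 0.604 of 0 h. PIP2-7 makes up 36.57 to 81.69% of the 9311 bars and 22.17 to 55.46% of the DC90 bars at 24 h.

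On recovery most PIP transcripts rose again. By 96 h none differed from 0 h past the threshold in either genotype, which alone does not show a full return. In 9311 0 of 10 were called at 96 h by edgeR (1 at an unadjusted p under 0.05, 1 by DESeq2 and 0 by limma; 2.63% of all loci were called), and the median log2 fold change was 0.16. PIP2-7 and PIP1-3 were nevertheless above their untreated ranges in all 9311 libraries at 96 h, at 271.2 to 687.9 against 50.2 to 83.66 FPKM (log2 2.80, SE 0.96, adjusted p = 0.133) and at 151.1 to 186.3 against 66.78 to 85.31 FPKM (1.12, SE 0.63, adjusted p = 0.469). Both passed as higher without the 4 libraries that stood apart, none of which is a 9311 library at 0 or 96 h. In DC90 0 of 10 were called as well (3 at an unadjusted p under 0.05, 0 by DESeq2 and by limma, against 6.35% of loci), with a median of -0.28. There 8 estimates were negative. Mean FPKM of PIP2-5, PIP1-3, PIP2-3 and PIP2-4 was at 34.72%, 43.46%, 44.83% and 53.27% of 0 h. These values rest on DC90 replicate 3 at 0 h. Without it their log2 fold changes were 0.48, -0.16, 0.69 and -0.47, and the median of the members was 0.55. At 84 h, 12 h into recovery, 1 member was called lower than at 0 h in 9311 (5.84% of loci) and 5 in DC90 (9.07%). By FPKM ranges the order was the reverse. In 9311, with 2 libraries at 84 h, 6 members lay wholly below the untreated range and 1 above it. In DC90 2 lay below and 0 above. These counts therefore do not show which genotype recovered sooner. The 9311 locus was PIP2-4, with 3.573 and 5.036 FPKM (log2 -2.0, SE 0.56, adjusted p = 0.0216), a call lost without replicate 3 at 0 h (adjusted p = 0.087), replicate 1 at 84 h (0.15) or replicate 3 at 84 h (0.13). The DC90 loci were PIP1-2 (-1.34), PIP1-3 (-2.36), PIP2-2 (-2.22, SE 0.39, adjusted p = 0.000251), PIP2-3 (-2.65) and PIP2-4 (-1.81). Without DC90 replicate 3 at 0 h only PIP2-2 remained lower at 84 h (-1.76, adjusted p = 0.00309). Under the study's thresholds PIP2-2 was the 1 member called in DC90 at 84 h (2.51% of loci). The DC90 count at 84 h was 1 without replicate 2 at 84 h and 3 without replicate 1 or replicate 3 at 84 h.

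The climb back from 72 h was read from the steps between timepoints. The step from 72 to 84 h crosses the daily phase, and that part cannot be told apart from rewarming. At 84 against 12 h, which share a phase, 1 member was higher and 4 lower in 9311, and 0 higher and 3 lower in DC90. The share of all loci for that comparison is not given here. In 9311 5 members had risen by 84 h (23.8% of loci higher), namely PIP1-1 (1.23, adjusted p = 0.0192), PIP1-2 (1.60, adjusted p = 0.00202), PIP2-1 (1.51, adjusted p = 0.00123), PIP2-2 (1.44, adjusted p = 0.006) and PIP2-6 (1.92, adjusted p = 0.00901). The count was 2 without 9311 replicate 3 at 84 h (PIP1-2 and PIP2-1) and 3 without 9311 replicate 1 at 72 h (PIP1-1 and PIP2-6 lost), and PIP1-1 was also lost without replicate 3 at 72 h (adjusted p = 0.098). In DC90 0 of the 10 passed as higher at 84 h than at 72 h, and 1, PIP2-4, was lower (-1.32, SE 0.47, adjusted p = 0.0257, with 40.9% of loci called in either direction). That call was lost without DC90 replicate 2 at 72 h (adjusted p = 0.16) or replicate 2 at 84 h (adjusted p = 0.11). These step counts depended on the fit. With only the compared groups fitted, 0 members passed in 9311, and in DC90 PIP2-6 was higher (0.92) and PIP1-3 and PIP2-4 were lower. Without the 4 libraries that stood apart, PIP1-2 (0.63), PIP2-1 (0.56) and PIP2-6 (0.88) were higher in DC90 at 84 h, PIP1-3 and PIP2-4 lower, and 5 members higher in 9311. None of the 4 is a DC90 library at 72 or 84 h. The difference between the genotypes in this step was not tested. By 96 h, 8 members had risen from 72 h in 9311 (26.4% of loci higher) and 5 in DC90 (21.2%). PIP1-2, the most abundant, held 930.6, 803 and 1009 FPKM in 9311 and 887.1, 717.7 and 822.4 in DC90 at 96 h. All 6 values were above every chilled library of the same genotype, and PIP1-2 had risen by log2 2.60 (SE 0.38, adjusted p = 4.16e-06) and 1.96 (adjusted p = 0.000159). PIP2-2 in DC90 stayed at 61.41, 53.57 and 65.13 FPKM at 84 h and rose only afterwards, to 201.8, 193.5 and 162.6 at 96 h (1.90, SE 0.39, adjusted p = 0.00417).

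PIP1-3 and PIP2-7 ended recovery at levels that did not overlap between the genotypes. PIP1-3 held 151.1, 186.3 and 167.4 FPKM in 9311 at 96 h and 38.03, 63.18 and 43.97 in DC90. PIP2-7 held 362.1, 687.9 and 271.2 in 9311 and 128.5, 24.71 and 123.9 in DC90. Each 9311 library was above each DC90 library for both genes, although the differences did not pass the threshold (PIP1-3 -1.82, SE 0.65, adjusted p = 0.344, and PIP2-7 -2.27, SE 0.94, adjusted p = 0.492). The PIP2-7 share of all PIP transcript level at 96 h was 8.667 to 23.29% in 9311 and 0.8995 to 4.663% in DC90 (exact p = 0.1).

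Compared directly, no PIP locus differed between the genotypes past the threshold before chilling. At 0 h 0 members passed by edgeR (0 at an unadjusted p under 0.05, 0 by DESeq2 and by limma, with 0.597% of loci called), nor at 12 h (0 at an unadjusted p under 0.05, 0 by both other tools, 0.375% of loci). At 24 h 0 passed by edgeR, DESeq2 or limma, 4 had an unadjusted p under 0.05, and 0.823% of loci were called. The 4 were all higher in DC90, PIP2-4 by log2 1.34 (SE 0.47, adjusted p = 0.2), PIP1-2 by 1.00 (SE 0.37, adjusted p = 0.225), PIP1-1 by 0.81 and PIP2-1 by 0.76. Without the 4 libraries that stood apart, PIP1-2 (1.18) and PIP2-1 (1.02) passed at 24 h. Leaving out only DC90 replicate 1 at 24 h gave the same estimates, and neither passed (adjusted p = 0.251 and 0.232). At 72 h 1 member, PIP2-4, passed (5.21% of loci), and all 10 estimates were positive with a median of 0.59. At 84 and 96 h 0 passed by edgeR, DESeq2 or limma (1 and 2 at an unadjusted p under 0.05, with 0.675% and 0.658% of loci called). Without the 4 libraries, PIP1-3 passed as lower in DC90 at 96 h (-1.82), although none of the 4 is a 96 h library.

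PIP2-4 was the only PIP locus whose genotype difference passed at 72 h with all libraries fitted. It held 8.229, 20.47 and 13.04 FPKM in DC90 at 72 h and 2.298, 3.043 and 2.572 in 9311. All DC90 libraries lay above all 9311 libraries, 5.37-fold in the fit (log2 2.42, SE 0.49, adjusted p = 0.00384), and the call was kept on leaving out each of the 6 libraries in turn. With only the compared groups fitted, the difference was 2.45 and did not pass (adjusted p = 0.088). PIP1-3 (47.98 to 52.15 FPKM in DC90 and 4.392 to 32.9 in 9311) and PIP2-3 (2.64 to 8.301 and 0.7871 to 2.617) did not overlap between the genotypes at 72 h either, although their differences did not pass (0.92, SE 0.63, adjusted p = 0.432, and 1.36, SE 0.85, adjusted p = 0.374). Averaged over the 3 chilling timepoints, 2 members were higher in DC90 (10.6% of loci called), PIP2-4 by log2 1.14 (SE 0.27, adjusted p = 0.00814) and PIP2-1 by 0.62 (SE 0.19, adjusted p = 0.0327). PIP2-4 passed in all 18 fits that left out 1 chilled library. PIP2-1 passed in 8 of them and was lost (adjusted p = 0.054 to 0.078) without DC90 replicate 1 or 2 at 12 h, 2 or 3 at 24 h or 3 at 72 h, or without 9311 replicate 1 or 3 at 12 h, 2 at 24 h or 1 or 3 at 72 h. Over the recovery timepoints 0 members passed (1 at an unadjusted p under 0.05, 0 by DESeq2 and by limma, 1.51% of loci). PIP1-3 passed as lower in DC90 (-1.24) without the 4 libraries that stood apart, none of which is a recovery library.

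How many loci separated the genotypes at 72 h turned on 9311 replicate 2. In that library PIP1-1, PIP1-2, PIP2-1, PIP2-2 and PIP2-6 were at 372.2, 256.1, 216.2, 62.14 and 240.6 FPKM, against at most 75.98, 112.4, 78.82, 25.18 and 40.17 in its mates. Its PIP2-7 and PIP1-3, at 10.46 and 4.392 FPKM, were instead the lowest of all 35 libraries. Its leaf-marker sum was 826.9 FPKM against 1497 and 2736 in its mates and its root-marker sum 7.775 against 15.38 and 15.11. Without it 5 members were higher in DC90 at 72 h, namely PIP1-1 (1.71, SE 0.27), PIP2-1 (1.48, SE 0.32), PIP2-2 (1.29, SE 0.39), PIP2-4 (2.46, SE 0.58) and PIP2-6 (1.80, SE 0.43). Over the chilling timepoints the count became 6 (these and PIP1-2, between 0.70 and 1.16). The share of all loci called in this fit is not given here. Calls rose outside the PIP loci too. Of 16 other aquaporins tested, 6 were higher and 1 lower in DC90 at 72 h, in place of 3 and 0. Over the chilling timepoints 6 of them were higher, in place of 4. In 9311 itself 7 members then differed from 0 h at 72 h, all lower, with PIP2-6 gained and PIP1-3 and PIP2-5 lost. Whether the library or its mates are typical of 9311 at 72 h was not tested.

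**Figure D5:**
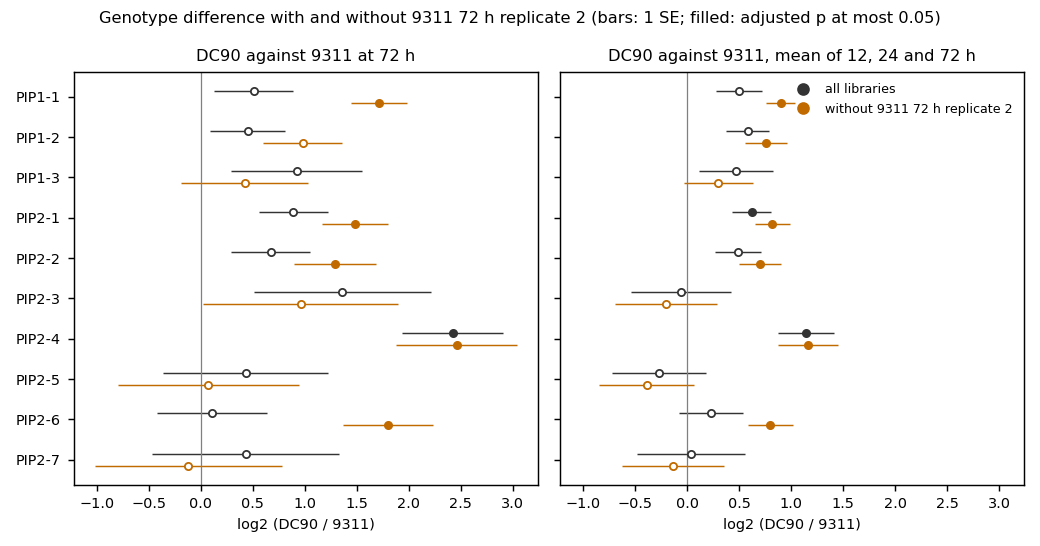
Log2 difference of DC90 from 9311 with ±1 SE for each PIP locus, at 72 h and averaged over 12, 24 and 72 h, from the fit with all libraries (dark) and from the fit without 9311 replicate 2 at 72 h (orange). PIP2-4 stands at 2.42 and 2.46 at 72 h in both fits, while PIP1-1, PIP2-1, PIP2-2 and PIP2-6 move up when the library is left out.

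A change from 0 h that passed in one genotype and not in the other was tested directly as a difference in change, and no member passed. The counts by edgeR, DESeq2 and limma were 0 at 12, 24, 72, 84 and 96 h, with 0, 0, 1, 1 and 2 members at an unadjusted p under 0.05, while 0.0261%, 0.0218%, 0.152%, 0.836% and 0.0131% of all loci were called at these timepoints. The nearest were PIP2-4 at 72 h, whose fall in 9311 was larger by log2 2.01 (SE 0.66, 95% interval 0.71 to 3.30, adjusted p = 0.276), PIP2-2 at 84 h (-1.47, SE 0.56, adjusted p = 0.241) and PIP1-3 at 96 h (-2.47, SE 0.90, adjusted p = 0.373). F tests of the interaction over the chilling and over the recovery timepoints also gave 0 members (1 and 3 at an unadjusted p under 0.05; not run in the other tools), beside 0.27% and 0.148% of loci. Without 9311 replicate 2 at 72 h, PIP1-1 passed at 72 h (1.69, SE 0.35, adjusted p = 0.016). Without all 4 libraries that stood apart, PIP1-1 (1.81), PIP1-2 (1.47), PIP2-1 (1.78) and PIP2-4 (2.73) passed at 72 h, and 4 members passed the F test over chilling. These differences between fits come from libraries chosen after the data were seen.

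The tissue markers moved during the same timepoints. The summed level of the root-preferred list was 128.9 to 189.7 FPKM in untreated 9311 and 19.27 to 75.8, 24.9 to 43.59 and 7.775 to 15.38 at 12, 24 and 72 h. In DC90 it was 42.06 to 687 at 0 h and 31.03 to 34.04, 19.93 to 31.55 and 31.75 to 51.94 during chilling. Of 9 root markers tested, 0, 2 and 8 fell in 9311 at 12, 24 and 72 h and 7, 5 and 6 in DC90. Without 9311 replicate 2 at 72 h the 9311 count at 72 h was 5. Without DC90 replicate 3 at 0 h the DC90 counts were 0, 0 and 1, with medians of 0.34, 0.54 and 0.65 in place of -2.62, -3.06 and -3.05. At 72 h the root-marker sums of the DC90 libraries were all above those of 9311, as were those of PIP2-4, and 1 root marker of 9 was higher in DC90. Within the 11 groups of 3 libraries, the library highest in the root sum was also the highest in PIP2-3 in 8 groups, in PIP2-5 in 8, in PIP1-2, PIP2-2 and PIP2-4 in 6 each, and in PIP2-7 in 2. The library highest in the leaf sum was the highest in PIP2-3 in 7 groups, in PIP1-3 and PIP2-7 in 6 each, and in PIP2-5, PIP1-2, PIP2-2 and PIP2-4 in 5 each. NRT2.1, NRT2.2, LOC_Os02g40710 (an ammonium transporter) and IRT1, 4 of the 11 root markers, were at 0 in some libraries. The leaf-preferred list, led by photosynthesis genes, also dropped, from 22730 to 27490 FPKM at 0 h to 826.9 to 2736 at 72 h in 9311 and from 18120 to 30740 to 1817 to 3755 in DC90, and none of its 9 markers was at 0. The leaf sum was still at 1362 to 2367 and 2006 to 4538 at 84 h, when PIP1-2 was at 591.6 and 536.5 FPKM in 9311 and between 358.8 and 450.1 in DC90. The part of tissue proportions in the PIP values was not tested.

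Other aquaporins gave a measure of how general the change was. Of 21 listed aquaporins of the tonoplast (TIP), NOD26-like (NIP) and small basic (SIP) types and PIP2-8, 16 passed the limit for testing. A NIP locus is also on the root-preferred list, so the lists are not separate. In 9311 at 24 and 72 h 3 rose and 5 and 7 fell, with medians of -0.55 and -0.73, and in DC90 3 rose and 3 and 6 fell, with medians of -0.29 and -0.51. Of all loci, 20.7% rose and 20.4% fell in 9311 at 24 h, and 23.9% and 24.9% at 72 h. In DC90 the shares were 20.1% and 20.5% at 24 h and 18.6% and 21.6% at 72 h. Without DC90 replicate 3 at 0 h the DC90 counts were 2 higher and 2 lower at 24 h and 3 higher and 3 lower at 72 h. TIP4-1 (LOC_Os05g14240), a water channel of the vacuole membrane, rose at 24 h as PIP2-7 did and was still higher than at 0 h at 72 h. Its 9311 FPKM was 40.42 to 61.66 at 0 h, 239 to 471.3 at 24 h and 166.6 to 218.7 at 72 h, without overlap, and it rose by log2 3.13 (SE 0.51, adjusted p = 2.57e-05) and 1.97 (SE 0.49, adjusted p = 0.00171). In DC90 it went from 39.27 to 103.7 FPKM at 0 h to 291.9 to 532.5 at 24 h (2.37, SE 0.49, adjusted p = 0.000449). The abundant TIP1-1 (LOC_Os03g05290) and TIP2-2 (LOC_Os06g22960) did not pass against 0 h at any timepoint in either genotype. At 72 h 3 of these 16 loci were higher in DC90 and none lower, and without 9311 replicate 2 at 72 h 6 were higher and 1 lower. The PIP-like locus LOC_Os07g26640, between PIP2-4 and PIP2-5 in locus number, had 1.243 to 4.283 FPKM in 9311 at 72 h and 7.625 to 10.6 in DC90. Its ranges were apart like those of PIP2-4, but its genotype difference did not pass (1.52, SE 0.63, adjusted p = 0.155).

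The loci also differed in how alike their patterns were over the 35 libraries, which share depth, timepoints and plants, so that these correlations are only descriptions. PIP1-1 and PIP2-6 were the closest pair (r = 0.955), followed by PIP1-2 and PIP2-1 (0.916), PIP1-1 and PIP2-1 (0.906) and PIP1-2 and PIP2-2 (0.905). The low-abundance root-associated loci PIP2-3 and PIP2-5 had r = 0.709 with each other. PIP2-7 was negatively related to PIP1-1 (-0.512) and PIP2-6 (-0.469). Among 14335 loci with a mean of at least 5 FPKM, those most like PIP1-2 outside the list were LOC_Os07g43940 (annotated as a glucan endo-1,3-beta-glucosidase, r = 0.931), LOC_Os08g13920 (XTH8, a xyloglucan endotransglycosylase, 0.93) and LOC_Os03g16600 (0.926, uncharacterized). Those most like PIP2-1 were LOC_Os01g56130 (CSLC1, a probable xyloglucan glycosyltransferase, 0.909), LOC_Os05g35410 (the potassium channel AKT2, 0.907) and LOC_Os03g18220 (pyruvate decarboxylase PDC2, 0.895).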

How the data were processed

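The authors extracted RNA from whole plants and mapped paired-end reads with HISAT2 to Rice Genome Annotation Project Release 7. The paper names a NEBNext Ultra kit and the labels a TruSeq kit. The submitters' processing notes list Bowtie 0.12.2 and a mouse build, which the rice loci in the files contradict. The counting tool, strand setting and handling of reads that fit several loci are not given in the sources used here. The deposited table gives raw read counts and FPKM (fragments per kilobase of transcript, scaled to the reads of the library) for each library, and both were used as the authors deposited them. It includes 1816 loci that the authors added to the annotation. Members carry the gene names of the table's protein annotation, and symbols were matched to RefSeq synonyms for 10 of 10 members. Its assembly is not that of the files, so no coordinates are given.

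Counts were tested with edgeR 4.0.16 (R 4.3.3; TMM scaling, quasi-likelihood fit of all 12 groups, Benjamini-Hochberg over 22961 loci with a mean of at least 0.5 FPKM, called at an adjusted p of at most 0.05). Standard errors are the log2 fold change over the root of F. Sums of FPKM were compared by exact permutation tests, two-sided, which with 3 against 3 libraries cannot go below p = 0.1 (0.2 with 2 against 3). The scripts were tested on simulated counts. Tables and figures used Python 3.11.15 with pandas 2.3.3, numpy 2.4.6, scipy 1.17.1 and matplotlib 3.10.9. Alternatives were DESeq2 1.42.0, limma 3.58.1 on log2(FPKM + 1), RLE and upper-quartile scaling, no filter, fits of the compared groups only, the replicate number as a block, each library left out, and the study's own thresholds. Leaving out 4 libraries at once was added after the data were seen. Those libraries stood apart from their groups, and the fit shares its spread over groups, so calls can change where no library was removed. Named are all 10 members, the 6 most abundant tested other aquaporins where a result turns on them, the neighbouring PIP-like locus and the 3 loci most like PIP1-2 and PIP2-1. The members, marker lists and aquaporin list were chosen with earlier results of these data known. Libraries of a group are stated to be biological replicates. The unit of depth is counted reads, and the number of libraries, not reads, limits the precision.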

Additional observations from a re-analysis of the deposited data

How the results depend on the processing

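The counts of PIP loci called were mostly decided by a few libraries and by the threshold, while the falls of PIP1-2 and PIP2-1 in 9311 at 24 and 72 h were called under every alternative run for them. Of 62 single-locus calls among 272, DESeq2 lost 0 and gained 15, RLE scaling lost and gained 0, upper-quartile scaling lost 1 and gained 5, no filter lost 2, limma lost 12 and gained 8, and fits of the compared groups alone lost 19 and gained 10. Of 46 pairs of same-numbered libraries 12 had a correlation over 0.1 (median 0.035). All 3 pairs did so between the genotypes at 12 h (0.187, 0.383 and 0.209), where 0 members passed with and without the block, and in no other comparison did every pair. With the replicate block 1 call was lost and 3 were gained, for example 9 in place of 8 members in 9311 at 72 h, 5 in place of 4 in DC90 at 12 h and 4 in place of 5 in DC90 at 84 h.

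Under the study's thresholds the counts against 0 h at 12, 24, 72 and 84 h were 0, 2, 4 and 0 in 9311 and 0, 0, 1 and 1 in DC90. They were 0 between genotypes at 72 h and over chilling, 0 for 84 against 72 h in both genotypes, and 4 in 9311 and 0 in DC90 for 96 against 72 h. DESeq2 gave 3 in 9311 at 84 h, 1 in 9311 at 96 h and 8 in DC90 at 72 h, and limma gave 2 in DC90 at 72 h and 1 at 84 h. Without a filter 1 locus differed over chilling. Fits of the compared groups alone gave 3 and 2 in 9311 at 84 and 96 h, 1 in DC90 at 84 h, 0, 1 and 1 between genotypes at 72 h, at 96 h and over chilling, and 0 in 9311 and 3 in DC90 (1 higher, 2 lower) for 84 against 72 h. Without the 4 libraries that stood apart the counts were 5, 3 and 2 in 9311 at 12, 84 and 96 h, 2 in DC90 at 84 h, 2, 6, 1, 6 and 1 between genotypes at 24 h, 72 h and 96 h, over chilling and over recovery, 4 for the difference in change at 72 h, 4 for the interaction over chilling and 5 (3 higher, 2 lower) for DC90 at 84 against 72 h. In that fit PIP2-5 in DC90 at 24 h turned from -0.51 to 1.77. Leaving out 1 library gave 0 to 1 in 9311 at 84 h, 2 to 4, 3 to 7 and 1 to 5 in DC90 at 12, 72 and 84 h, 1 to 5 and 1 to 6 between genotypes at 72 h and over chilling, 0 to 1 for the difference in change at 72 h, and 2 to 5 and 0 to 1 for 84 against 72 h in 9311 and DC90. Summed as TMM-scaled CPM, PIP1 in 9311 was 0.436, 0.252 and 0.716 of its 0 h level at 12, 24 and 84 h, in place of 0.370, 0.201 and 0.894. Shares of all loci called in these refits are not given here. The causes were not tested, beyond the fewer libraries or the stricter threshold that define each alternative.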
